A study of Mus musculus with 27 samples.

Results

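The epidermal differentiation complex is a cluster of genes that epithelia of the skin type use to build a tough surface. Its Sprr (small proline-rich), Lce (late cornified envelope) and S100a (calcium-binding) genes were followed in mammary cells that underwent an epithelial-to-mesenchymal transition (EMT). The members were the gene symbols of the deposited expression tables that begin with Sprr, Lce or S100a and a digit. They number 50 of 24892 symbols, of which 15 are Sprr, 21 are Lce and 14 are S100a genes. They were selected on measured values, namely the FPKM difference of Sprr2a1 and Lce1g between lamin B1 knockdown (KD) and control cells. That difference is therefore described, and calls on it are counted for scale only.

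The cells were NMuMG, a mouse mammary gland epithelial line, grown in medium with serum and insulin and left untreated or given TGF-β, the growth factor that drives their EMT, for 8 h or 24 h at 1 to 5 ng/ml. RNA-seq covered parental cells, cells infected with an irrelevant shRNA (control cells) and cells infected with an shRNA against lamin B1 (KD cells), each at 0 h, 8 h and 24 h and each with 2 libraries a time point, which the methods call biological replicates. Lamin B1 ChIP-seq and ATAC-seq, a measure of open chromatin, were done on parental cells at the same times, with 1 library each, and parallel ChIPs were mixed into each ChIP library. The methods describe infected cultures and no single clone.

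In stratified skin, Sprr and Lce proteins are bound to each other by transglutaminases under the membrane of the dying keratinocyte, and form part of the cornified envelope. Sprr genes are also known to be switched on in simple epithelia under stress. S100 proteins change shape when they bind calcium and then dock onto partners such as annexins and myosin, and the pair S100a8 and S100a9 is best known from myeloid cells.

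Levels are given as FPKM, fragments scaled by transcript length and by the reads of the library, which the authors computed and which can be compared between genes. The number of reads is unknown, and in such bulk samples fewer cells of a type and less RNA per cell cannot be told apart. The steps between the lowest values put the relative depth of the libraries at 93.5% to 116% of the first library in the parental table and at 82.6% to 108% in the shRNA table. Lmnb1, the target of the KD, was 29.2 and 36.5 FPKM in control cells and 9.01 and 9.27 FPKM in KD cells at 0 h, and the KD libraries were also lower at 8 h and 24 h. The epithelial marker list summed to between 4326 and 7009 FPKM in every library, and the list of squamous keratinocyte markers to between 6.40 and 35.2 FPKM. Of the squamous list, Krt14 moved most, from means of 4.39 FPKM in control and 1.63 FPKM in KD cells at 0 h to 27.3 and 26.7 FPKM at 8 h, and its part in the results below was not tested. Krt5 and Krt1, which define keratinocytes of the skin, stayed below 1 FPKM. Of the 8 squamous markers, 4 reached 1 FPKM in parental cells and 4 in the shRNA cells. At 24 h, 2 of 4 tested were higher and 0 lower in parental cells. Of 3 tested, 1 was higher and 1 lower in control cells, and 2 were higher and 0 lower in KD cells. Of the epithelial list at 24 h, 2 of 5 tested were higher and 2 lower in parental cells. Of 6 tested, 3 were higher and 2 lower in control cells, and 4 were higher and 2 lower in KD cells. The range of the sum does not show these changes.

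A gene was tested where it reached 1 FPKM in at least 2 libraries of its table. Of 48 members listed for parental cells, 29 passed, and of 49 listed for the shRNA cells, 28 passed. Those that did not pass were 11 Lce, 6 Sprr and 2 S100a genes in the parental table. Lce3a, Lce3d, Lce3e, Lce3f and Sprr4 were at 0 in every library that lists them. Lce1i, Lce1k, Lce1l, Lce1m, Lce3b, Lce3c and Lce6a never passed 0.425 FPKM, so within the Lce family the RNA came from the Lce1 genes. Lce1d, Lce1h and S100a9 in the parental table, and Lce1j in the shRNA table, passed through the libraries of 1 time point. These had to differ between times. In the parental table Lce1a1, Lce1a2, Lce1c, Lce1e and Lce1f passed only through libraries treated with TGF-β. In the shRNA table the same held for Lce1c, Lce1d, Lce1e, Lce1f and Lce1h. The filter therefore favoured a rise of these Lce genes. S100a14 in both tables, Sprr2a2 and S100a8 in the parental table and Sprr2a1 in the shRNA table passed only through libraries of 0 h and 8 h. Among control cells, Sprr2b and Sprr2g reached 1 FPKM at 0 h only. For these genes the filter favoured a fall by 24 h. Counts and medians of the tested members describe them and support nothing further.

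The Lce1 genes were nearly silent in untreated cells and rose together under TGF-β. All 9 Lce genes tested in parental cells were higher at 8 h and at 24 h (limma on log2(FPKM + 1), adjusted p under 0.05). All 10 tested in the shRNA table were higher at both times in control and in KD cells. The calls of Lce1e and Lce1h in parental cells at 8 h were lost without the filter on low values (adjusted p = 0.0877 and 0.113), and that of Lce1h also after quantile normalization (adjusted p = 0.126), without either 0 h library (0.0767 and 0.0733) or without the first 8 h library (0.0613). The median change of the tested Lce genes at 24 h was 3.66 on the log2 scale in parental cells, 4.21 in control cells and 3.87 in KD cells. The median over all tested genes was -0.02, -0.13 and -0.10. Summed over the 13 Lce1 genes of the parental table, the level went from 5.49 and 4.20 FPKM at 0 h to 40.9 and 26.6 FPKM at 8 h and to 217 and 186 FPKM at 24 h.

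The stretch around the start site of 8 Lce1 genes is shown because these genes rose together. Each line holds the 45 bases before the start site and the first 5 bases from it, 5′ to 3′ on the gene's strand, read from mm9 where the RefSeq promoter (table of build GRCm38.p6) matched letter for letter. Capitals mark AATAAAA, or TATAAA where the gene has it.
Lce1a1: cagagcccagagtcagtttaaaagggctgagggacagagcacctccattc
Lce1a2: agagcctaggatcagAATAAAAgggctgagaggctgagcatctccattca
Lce1b: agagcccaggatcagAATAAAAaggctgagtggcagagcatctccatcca
Lce1c: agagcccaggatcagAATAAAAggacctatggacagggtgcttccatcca
Lce1d: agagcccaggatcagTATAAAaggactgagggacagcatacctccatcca
Lce1e: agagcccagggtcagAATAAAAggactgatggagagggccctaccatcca
Lce1g: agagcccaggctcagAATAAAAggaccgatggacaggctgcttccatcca
Lce1h: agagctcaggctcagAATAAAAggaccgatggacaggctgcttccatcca
They lie on mm9 at chr3:92452225-92452274 (minus strand, Lce1a1), chr3:92474233-92474282 (minus, Lce1a2), chr3:92460844-92460893 (minus, Lce1b), chr3:92483124-92483173 (plus, Lce1c), chr3:92491128-92491177 (minus, Lce1d), chr3:92512992-92513041 (minus, Lce1e), chr3:92556256-92556305 (minus, Lce1g) and chr3:92568983-92569032 (minus, Lce1h). The letters AATAAAA began at -30 from the start site in the 6 marked genes, and TATAAA at the same place in Lce1d. Over both strands of the RefSeq promoters, from 250 bases before to 50 bases after the start, AATAAAA was in 9 of 13 Lce1 promoters, 1 of 13 Sprr promoters and 8.59% of all 27025 promoters. It was searched after the sequences had been looked at, and it shares most of its letters with TATAAA though neither contains the other. AATAAAA was also in the promoters of Lce1i and Lce1k, whose highest values in any library were 0.135 and 0.0668 FPKM. Lce1a1, which rose, had neither AATAAAA nor TATAAA. Whether these letters go with the rise was not tested. A match of letters is a description and no proof of a binding site.

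Lce1g gave the most RNA of the family. In parental cells it was 2.08 and 1.66 FPKM at 0 h, 12.2 and 8.67 at 8 h, and 90.4 and 77.5 at 24 h. In control cells the values were 2.81 and 4.39, then 36.1 and 35.0, then 183 and 184 FPKM. In KD cells they were 7.30 and 6.74, then 24.7 and 24.2, then 182 and 141 FPKM. Each time point stood above the one before it in every library of all 3 kinds of cells. The change at 24 h was 4.89 ± 0.152 (standard error) on the log2 scale in parental cells (limma, adjusted p = 8.4e-07), 5.35 ± 0.154 in control cells (adjusted p = 1.26e-08) and 4.33 ± 0.154 in KD cells (adjusted p = 3.46e-08).

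Lce1f followed another time course. It was 0.235 and 0.0584 FPKM at 0 h, 10.2 and 6.01 at 8 h and 16.1 and 13.3 at 24 h in parental cells. In control cells it went from 0.358 and 0.317 to 21.1 and 21.6 and then to 38.1 and 37.7 FPKM. Its mean level at 8 h was 55.0% of that at 24 h in parental cells, 56.3% in control cells and 46.9% in KD cells. In the other 8 named Lce1 genes that share lay between 9.05% and 20.8%, between 15.8% and 27.9% and between 14.4% and 25.8%. The lowest share that any pair of libraries gave for Lce1f was 37.3%, and the highest for the other genes was 33.5%. The order was therefore the same with every library, though this comparison between genes was not tested.

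Among the remaining Lce1 genes the levels at 24 h differed more than the direction. Lce1b reached 33.9 and 28.8 FPKM in parental cells, Lce1a2 26.9 and 23.4, and Lce1c 20.4 and 16.8. Lce1a1 came to 14.9 and 12.1 FPKM, Lce1h to 5.91 and 5.34, Lce1e to 4.49 and 4.70, and Lce1d to 3.55 and 3.57. Lce1b, Lce1a2 and Lce1c did not overlap with one another in parental cells at 24 h, whereas Lce1a1 and Lce1f did. All 7 were higher in control than in parental cells at 24 h, with Lce1b at 55.0 and 52.5 FPKM, but these 2 tables were made separately. Lce1j, listed only in the shRNA table, went from 0.0338 and 0.0659 to 2.03 and 2.04 FPKM in control cells. Coding sequences of Lce1 genes are 49.3% to 95.7% identical (78 pairs, GENCODE M1), and Lce1c and Lce1f reach 95.7%, so the split of reads between copies is uncertain.

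**Figure D1:**
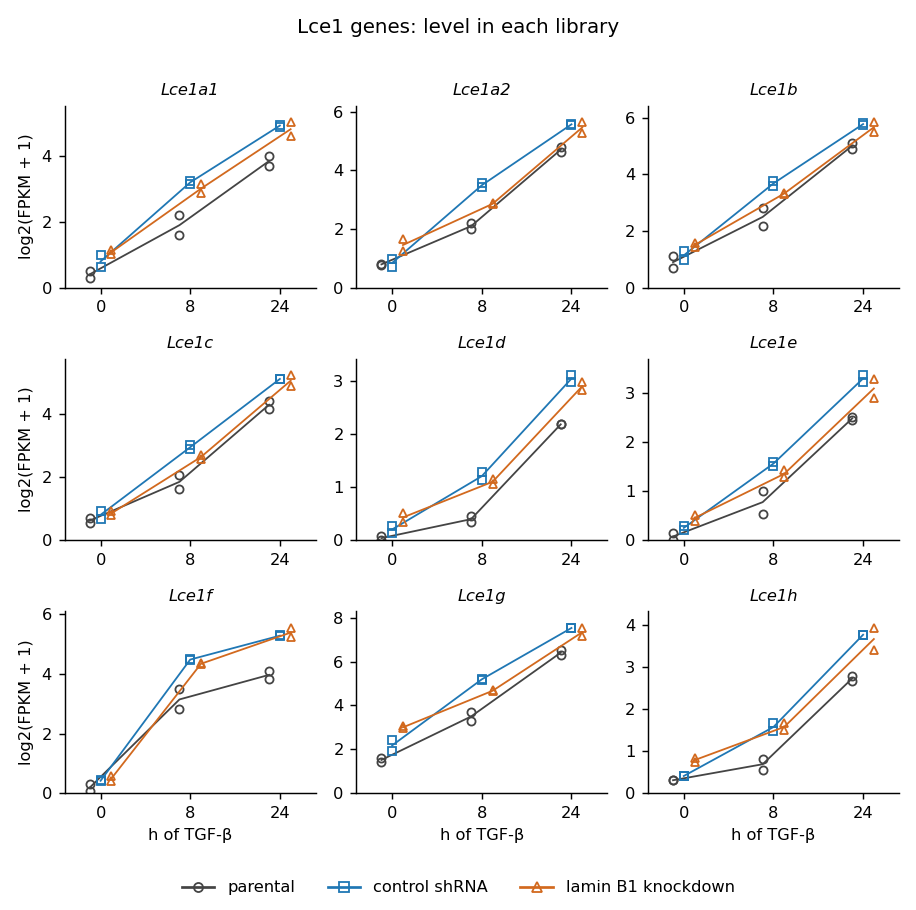
Level of the 9 named Lce1 genes, as log2(FPKM + 1), against hours of TGF-β (0, 8 and 24 h, evenly spaced) in parental, control shRNA and lamin B1 KD cells. Each symbol is 1 library and lines join the means of 2 libraries. Every gene is lowest at 0 h and highest at 24 h, and Lce1f has already climbed most of its way at 8 h.

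The Sprr genes went the other way, with 1 clear exception. Of 8 tested in parental cells, 6 were lower and 2 (Sprr2k and Sprr2e) were higher at 24 h. Of 7 tested in the shRNA table, 6 were lower and 1 (Sprr2k) was higher at 24 h, in control and in KD cells alike. The median change of the tested Sprr genes at 24 h was -1.08 in parental, -1.89 in control and -2.91 in KD cells on the log2 scale. At 8 h fewer were called, with 5 lower and 1 higher of 8 in parental cells, 5 lower of 7 in control cells and 3 lower of 7 in KD cells.

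Sprr1a, an envelope precursor that is also known from injured tissue, was the most abundant Sprr gene. It was 1724 and 1727 FPKM at 0 h, 1066 and 1323 at 8 h and 491 and 523 at 24 h in parental cells. In control cells the values were 4026 and 3614, then 793 and 785, then 103 and 111 FPKM. In KD cells they were 6316 and 6363, then 1062 and 1161, then 312 and 571 FPKM. No 2 time points overlapped in any of the 3 kinds of cells. The change at 24 h was -1.77 ± 0.0956 in parental cells (limma, adjusted p = 5.66e-06), -5.14 ± 0.219 in control cells (adjusted p = 1.06e-07) and -3.91 ± 0.219 in KD cells (adjusted p = 4.6e-07). Sprr1b, its neighbour, was 30.2 and 29.2 FPKM at 0 h and 20.1 and 19.9 at 24 h in parental cells. In control cells it fell from 29.5 and 33.4 to 4.12 and 4.69 FPKM, a change of -2.59 ± 0.0748 (limma, adjusted p = 1.27e-08).

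The promoters of 1 Sprr1 and 2 Sprr2 genes are shown because most Sprr promoters share their motifs. Each line holds 200 bases before the start site and the first 20 from it, on the gene's strand. Capitals mark the AP-1 motif TGANTCA and the TATA box TATAAA.
Sprr1a: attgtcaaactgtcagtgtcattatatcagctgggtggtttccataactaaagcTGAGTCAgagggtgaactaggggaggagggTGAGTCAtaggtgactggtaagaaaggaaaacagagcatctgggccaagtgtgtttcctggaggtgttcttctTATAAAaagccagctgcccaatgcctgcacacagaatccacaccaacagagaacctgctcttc
Sprr2b: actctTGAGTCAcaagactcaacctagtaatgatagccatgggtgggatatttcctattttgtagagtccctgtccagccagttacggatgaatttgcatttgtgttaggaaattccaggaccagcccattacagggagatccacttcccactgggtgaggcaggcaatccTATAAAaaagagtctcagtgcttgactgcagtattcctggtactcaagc
Sprr2h: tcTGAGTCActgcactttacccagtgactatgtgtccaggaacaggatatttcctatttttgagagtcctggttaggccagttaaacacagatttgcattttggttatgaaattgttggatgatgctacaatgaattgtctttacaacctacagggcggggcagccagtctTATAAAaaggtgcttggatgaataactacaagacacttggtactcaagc
On mm9 they are chr3:92289784-92290003 (minus strand, Sprr1a), chr3:92120427-92120646 (plus, Sprr2b) and chr3:92189407-92189626 (plus, Sprr2h). The AP-1 motif, the letters bound by Fos and Jun proteins, began at -195 from the start site in Sprr2b, at -198 in Sprr2h, and at -146 and -116 in Sprr1a. Over both strands of the same RefSeq promoters it was in 9 of 13 Sprr promoters, 0 of 13 Lce1 promoters, 1 of 11 S100a promoters and 7.93% of all promoters. TATAAA was in 10 of 13 Sprr, 2 of 13 Lce1 and 3 of 11 S100a promoters, against 14.2% of all. Sprr2k and Sprr2e, which were higher at 24 h in parental cells, have both motifs, with AP-1 at -196 and -182 in Sprr2k. The promoters of Sprr2a1 and Sprr2a2, which fell, have neither. Whether the motifs go with the direction of change was not tested. Sequences AACCNGTT, GTCTAGAC and TTGCNNAA, known for Grhl, Smad and C/EBP factors, were each in at most 1 promoter of a family. No match says only that these letters are not in the window.

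The promoter of Lce1g is shown for contrast, since neither of those motifs is in it. It is given over the same 220 bases (mm9 chr3:92556241-92556460, minus strand), all in lower case.
Lce1g: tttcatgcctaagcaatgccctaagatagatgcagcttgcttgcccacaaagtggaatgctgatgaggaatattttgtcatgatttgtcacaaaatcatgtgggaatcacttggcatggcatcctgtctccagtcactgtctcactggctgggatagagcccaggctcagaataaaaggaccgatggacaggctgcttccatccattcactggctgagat

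The Sprr2 genes lie side by side and were expressed unequally. Sprr2h was 133 and 126 FPKM at 0 h, 78.3 and 94.9 at 8 h and 22.9 and 24.4 at 24 h in parental cells. Its change at 24 h was -2.41 ± 0.0873 (limma, adjusted p = 1.25e-06), and it also fell in control cells (-2.63 ± 0.172, adjusted p = 1.38e-06) and KD cells (-2.91 ± 0.172, adjusted p = 6.45e-07). At 8 h Sprr2h was 112 and 110 FPKM in control cells, between their 2 values at 0 h of 84.1 and 128 FPKM. Sprr2g had already fallen at 8 h, from 5.95 and 4.37 to 1.52 and 2.11 FPKM in parental cells and from 5.63 and 4.54 to 0.457 and 0.781 FPKM in control cells. Sprr2g was 2.24 and 2.74 FPKM at 24 h in parental cells, no lower than at 8 h, and its 24 h call there was lost without the filter on low values (adjusted p = 0.0534).

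Sprr2k was the exception. It went from 1.88 and 1.24 FPKM at 0 h to 11.2 and 10.9 at 24 h in parental cells, a change of 2.25 ± 0.123 (limma, adjusted p = 5.99e-06). In control cells it went from 1.35 and 1.92 to 4.10 and 4.49 FPKM (1.01 ± 0.157, adjusted p = 0.000369). At 8 h Sprr2k overlapped with 0 h in all 3 kinds of cells. Sprr2e, at 1.30 and 0.949 FPKM before treatment and 3.57 and 3.29 at 24 h in parental cells, stayed below 1 FPKM in the shRNA table and was not tested there.

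Sprr2a1 and Sprr2a2 have identical coding sequences of 252 bases, and the parental table lists Sprr2a2 whereas the shRNA table lists Sprr2a1. Neither promoter could be placed at 1 position of mm9, and which copy was transcribed cannot be told apart. Sprr2a2 was 10.9 and 10.7 FPKM at 0 h, 1.96 and 2.45 at 8 h and 0.411 and 0.474 at 24 h in parental cells. Sprr2a1 was 4.06 and 3.09, then 0.838 and 1.17, then 0.220 and 0.228 FPKM in control cells. The fall at 24 h was -3.03 ± 0.0843 for Sprr2a2 in parental cells (limma, adjusted p = 6.18e-07) and -1.89 ± 0.122 for Sprr2a1 in control cells (adjusted p = 1.24e-06). In Sprr2 genes as a whole, coding identity ran from 41.6% to 100% over 55 pairs.

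At 0 h and 8 h, the largest fold differences between KD and control cells among the tested Sprr genes were those of Sprr2a1 and Sprr2b. In KD cells Sprr2a1 was 62.6 and 55.7 FPKM at 0 h, 46.6 and 50.4 at 8 h and 0.885 and 0.664 at 24 h. The means in KD cells were 16.6 times, 48.2 times and 3.46 times those in control cells at 0 h, 8 h and 24 h. Sprr2b was 13.9 and 11.1, then 10.5 and 12.8, then 0.124 and 0.234 FPKM in KD cells, against 1.28 and 1.71, then 0.295 and 0.256, then 0.0766 and 0.143 FPKM in control cells. Both genes were thus far above the control libraries at 0 h and 8 h in KD cells, and below 1 FPKM in both kinds of cells at 24 h. From 0 h to 8 h they fell in control cells (Sprr2a1 -1.19 ± 0.122, limma adjusted p = 4.03e-05, and Sprr2b -0.96 ± 0.128, adjusted p = 0.000188). In KD cells the same change was -0.28 ± 0.122 for Sprr2a1 (adjusted p = 0.0692, or 0.00801 when fitted on the libraries of these 2 groups only) and -0.09 ± 0.128 for Sprr2b (adjusted p = 0.548). From 0 h to 24 h both fell in KD cells, by 5.08 for Sprr2a1 (adjusted p = 4.51e-09) and 3.51 for Sprr2b (adjusted p = 3.92e-08) on the log2 scale. Whether the responses of KD and control cells differ was not tested, because Sprr2a1 and Lce1g led to the choice of the members. The tests of Sprr2a1 and Lce1g in control and KD cells used the libraries of that choice. Their p-values are therefore a description.

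The remaining Sprr genes had smaller fold differences at 0 h and 8 h, whereas at 24 h Sprr1a had the largest. Mean Sprr2h was 2.0 times as high in KD cells at 0 h, 2.46 times at 8 h and 1.72 times at 24 h. Mean Sprr1a was 1.66 times, 1.41 times and 4.13 times as high at the 3 times, and the ratio at 24 h rests on KD libraries of 312 and 571 FPKM. Sprr2k went against the rest, with 0.298 and 0.508 FPKM in KD cells at 0 h against 1.35 and 1.92 in control cells, and with 1.59 and 1.68 against 4.10 and 4.49 FPKM at 24 h. Lce1g was 1.95 times as high in KD cells at 0 h, 0.687 times at 8 h and 0.882 times at 24 h, so its higher start in KD cells was gone by 8 h. For scale, limma called 13 of 28 tested members between KD and control cells at 0 h (19.7% of all genes), 9 higher (10.6%) and 4 lower (9.09%). At 8 h it called 11 (35.8%), 6 higher (19.3%) and 5 lower (16.5%), and at 24 h 11 (28.3%), 9 higher (16.8%) and 2 lower (11.5%). This contrast chose the members, so nothing is read from these counts.

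**Figure D2:**
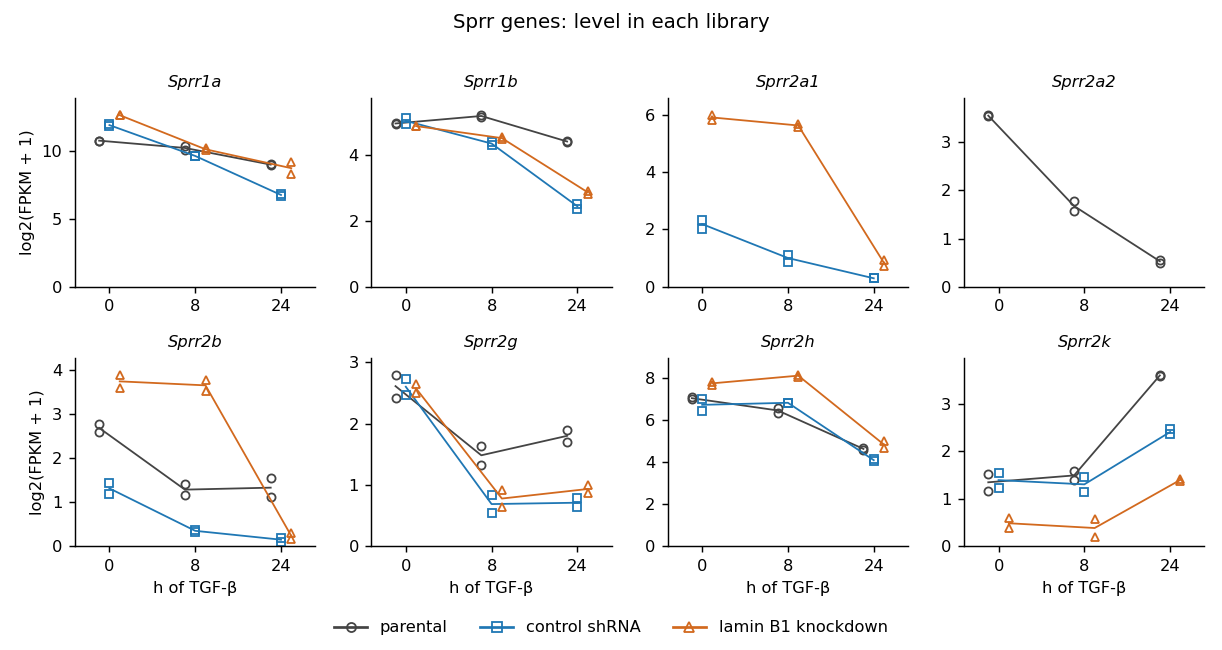
Level of the 8 named Sprr genes, as log2(FPKM + 1), against hours of TGF-β (evenly spaced) in parental, control shRNA and lamin B1 KD cells. Symbols are libraries and lines join the means of 2 libraries. Sprr2a1 is listed for the shRNA cells and Sprr2a2 for the parental cells only. Sprr2a1 and Sprr2b stay near their 0 h level until 8 h in KD cells and then drop, whereas Sprr2k rises between 8 h and 24 h.

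The S100a genes were mostly abundant and mostly fell. Of 12 tested in parental cells at 24 h, 9 were lower and 3 (S100a7a, S100a11 and S100a16) did not pass in either direction. Of 11 in control cells 9 were lower, and S100a7a and S100a8 did not pass. In KD cells 7 were lower, 1 (S100a11) was higher, and 3 (S100a1, S100a8 and S100a16) did not pass. The median change of the tested S100a genes at 24 h was -0.89 in parental, -0.57 in control and -0.49 in KD cells on the log2 scale.

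S100a6 (calcyclin) and S100a4, a protein that binds non-muscle myosin and is widely used as a marker of fibroblasts and EMT, were among the most abundant members. S100a6 was 12492 and 11501 FPKM at 0 h, 10306 and 9891 at 8 h and 4305 and 5181 at 24 h in parental cells. S100a4 was 2502 and 2233, then 1915 and 1963, then 945 and 999 FPKM. Both were lower at 24 h than at 0 h in every library, with a change of -1.34 ± 0.102 for S100a6 (limma, adjusted p = 2.62e-05) and -1.28 ± 0.0657 for S100a4 (adjusted p = 4.65e-06). Without the filter on low values the call of S100a6 in parental cells was lost (adjusted p = 0.0959). In control cells S100a6 went from 6394 and 7223 to 3285 and 3311 FPKM (-1.04 ± 0.11, adjusted p = 3.07e-05). S100a4 went from 922 and 1065 to 410 and 437 FPKM (-1.22 ± 0.0926, adjusted p = 3.43e-06). In KD cells the fall of S100a4 was smaller, from 551 and 613 to 455 and 486 FPKM (-0.31 ± 0.0926, limma, adjusted p = 0.0154), and at 8 h it was above 0 h, at 752 and 806 FPKM. The 24 h call of S100a4 in KD cells was lost without 0 h replicate 2 (adjusted p = 0.109) or 24 h replicate 1 (adjusted p = 0.0725). In parental cells at 24 h, 4 of the 5 listed mesenchymal markers were higher and 1 was lower.

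S100a10, the partner of annexin A2, was 793 and 735 FPKM at 0 h and 482 and 505 at 24 h in parental cells (-0.63 ± 0.0507, limma, adjusted p = 3.47e-05), and at 8 h it was 764 and 749 FPKM. S100a13, which takes part in the export of FGF1, went from 170 and 165 to 58.1 and 67.4 FPKM (-1.41 ± 0.0672, adjusted p = 3.49e-06). In KD cells S100a13 went from 173 and 188 to 118 and 102 FPKM (limma, -0.71 ± 0.0868, adjusted p = 7.65e-05). S100a3, a protein of the hair cuticle, fell from 9.01 and 9.32 to 6.04 and 4.70 FPKM in parental cells, and S100a14 from 3.60 and 3.06 to 0.562 and 0.961. S100a1 fell by 0.48 on the log2 scale in parental cells (limma, adjusted p = 0.000164) and was 0.05 ± 0.0752 in KD cells (adjusted p = 0.535).

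S100a11, which binds annexin A1, and S100a16 had small changes. S100a11 was 1914 and 1823 FPKM at 0 h and 1913 and 1838 at 24 h in parental cells, with a change of 0.01 ± 0.0518 (limma, adjusted p = 0.938). It was lower in control cells (-0.16, adjusted p = 0.00842) and higher in KD cells (0.11, adjusted p = 0.0429), and the direction in KD cells flips after quantile normalization. The KD call of S100a11 was lost without any one of its 4 libraries (adjusted p from 0.0527 to 0.152), and the control call without 0 h replicate 2 (0.0552) or 24 h replicate 1 (0.0551). S100a16 was 74.6 and 69.0 FPKM at 0 h and 67.9 and 68.4 at 24 h in parental cells. In control cells S100a16 was lower at 24 h, with means of 72.6 FPKM at 0 h and 57.3 FPKM at 24 h (-0.34 ± 0.0561, limma, adjusted p = 0.000573). In KD cells S100a16 was 92.3 and 94.4 FPKM at 0 h and 103 and 101 at 24 h, above every control library of the same time. S100a7a, the mouse psoriasin, was between 0.540 and 2.15 FPKM in parental cells and between 3.31 and 11.6 FPKM in the shRNA table. In KD cells S100a7a was called lower at 24 h (-0.77 ± 0.263, limma, adjusted p = 0.0253). That call was lost without the filter on low values (adjusted p = 0.0883) and after quantile normalization (adjusted p = 0.0645).

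S100a8, a subunit of calprotectin, was higher at 8 h and fell again by 24 h. It was 2.78 and 2.76 FPKM at 0 h, 7.78 and 7.42 at 8 h and 0.881 and 0.623 at 24 h in parental cells. There its level at 24 h was below that at 0 h (-1.11 ± 0.0825, limma, adjusted p = 2.4e-05). The change at 24 h was -0.29 in control cells and 0.31 in KD cells, and neither was called. The change at 8 h was 1.19 ± 0.0825 in parental cells (limma, adjusted p = 6.84e-05), 1.29 ± 0.232 in control cells (adjusted p = 0.00117) and 1.49 ± 0.232 in KD cells (adjusted p = 0.000427). Its partner S100a9 was low, with 1.94 and 1.07 FPKM at 0 h and 0.686 and 0.731 at 8 h in parental cells. In the shRNA cells S100a9 did not pass the filter, and it went from 0.373 and 0.941 to 0.732 and 1.29 FPKM in control cells and from 0.117 and 0 to 0.885 and 0.523 FPKM in KD cells at 8 h. It was thus lower at 8 h in parental cells, higher in KD cells, and overlapped in control cells. The 8 myeloid markers summed to between 1.39 and 2.95 FPKM in every library, with Mpo at 0 throughout and Elane at 0 in parental cells.

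**Figure D3:**
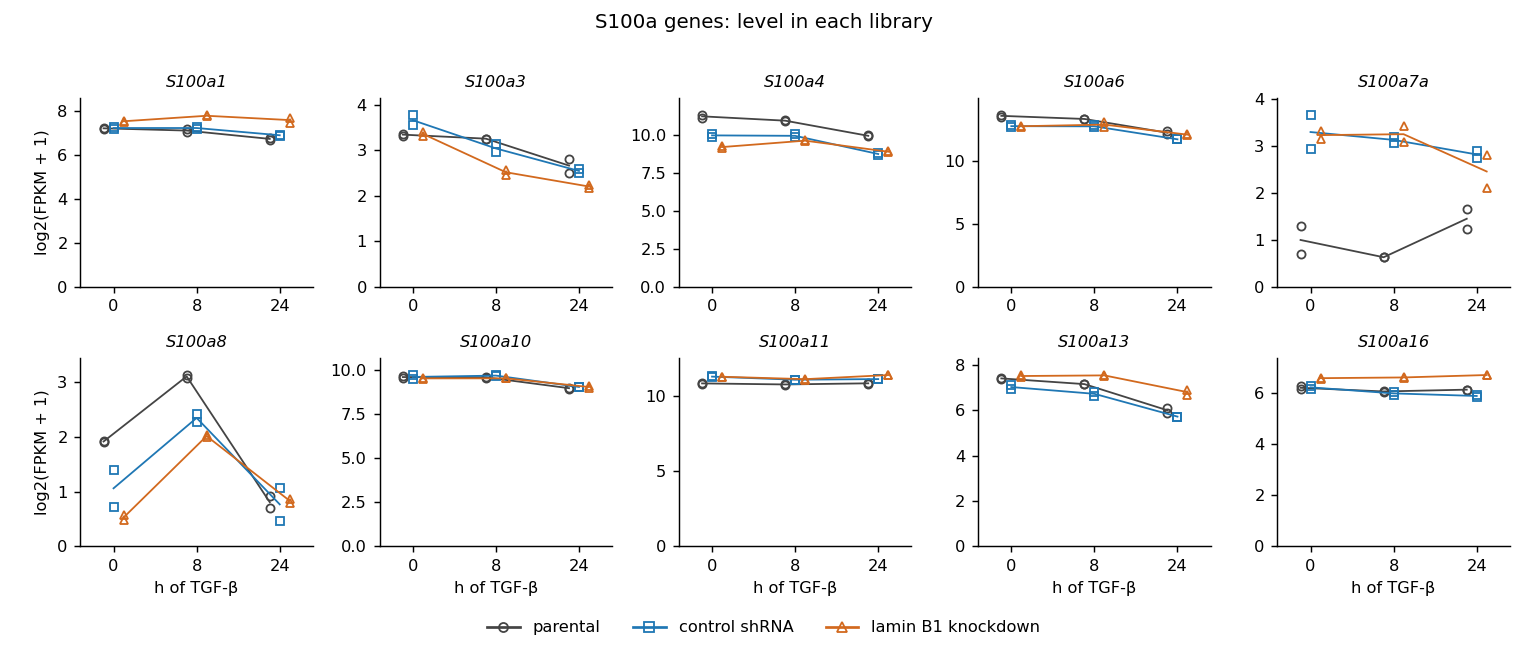
Level of the 10 named S100a genes, as log2(FPKM + 1), against hours of TGF-β (evenly spaced) in parental, control shRNA and lamin B1 KD cells. Symbols are libraries and lines join the means of 2 libraries. S100a8 peaks at 8 h in all 3 kinds of cells, and S100a6, S100a4 and S100a13 are lowest at 24 h. S100a11 and S100a16 are nearly level, except for a fall of S100a16 in control cells.

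Counted over the families, TGF-β changed 21 of 29 tested members at 8 h in parental cells, beside 54.5% of all 11309 genes tested. Of these 11 were higher (22.4% of all genes) and 10 lower (32.1%). At 24 h it changed 26 of 29 (70.5% of all genes), 11 higher (33.4%) and 15 lower (37.1%). In control cells the counts were 20 of 28 at 8 h (64.3% of all 11450 genes), 11 higher (19.4%) and 9 lower (44.9%), and 26 of 28 at 24 h (70.7%), 11 higher (25.5%) and 15 lower (45.1%). In KD cells they were 18 of 28 at 8 h (67.8%), 13 higher (23.0%) and 5 lower (44.8%), and 25 of 28 at 24 h (71.9%), 12 higher (28.6%) and 13 lower (43.3%). Most genes of these cells were called, so a call on its own says little about a member, and the direction by family and the size of the change carry the description. In control cells at 24 h, 36.1% of all called genes were higher, which became 50% after quantile normalization. The same scaling took this share from 30.2% to 46.0% in control cells at 8 h, from 33.9% to 46.0% in KD cells at 8 h and from 39.8% to 50.1% in KD cells at 24 h.

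Parental and control cells are separate libraries, so the calls of one can be set beside those of the other. Of the members 26 were tested in both. At 24 h 10 of these were higher in parental and 10 in control cells. They were the same genes, the 9 named Lce1 genes and Sprr2k. The filter favoured a rise of the Lce1 genes that passed only through treated libraries. This overlap and that of higher members at 8 h are therefore a description. Over all 10843 genes tested in both, 66.1% of those higher in parental cells were higher in control cells, and 86.4% the other way round. Lower in both were 12 members, 92.3% of the 13 in parental and 85.7% of the 14 in control cells, beside 89.8% and 73.4% over all genes, among them Sprr1a, Sprr1b, Sprr2b, Sprr2g, Sprr2h and 7 S100a genes. At 8 h 10 higher members were shared, 90.9% of the 11 in parental and 100% of the 10 in control cells, beside 66.0% and 77.9% over all genes. The lower members shared at 8 h were 5, which is 62.5% of the 8 in each, beside 87.3% and 61.9% over all genes. The filter favoured a fall of Sprr2b and Sprr2g in control cells and of S100a14 in both kinds of cells. The overlaps of lower members are therefore a description too. Sprr2a2 and Sprr2a1, each listed in 1 table, are not among these counts.

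**Figure D4:**
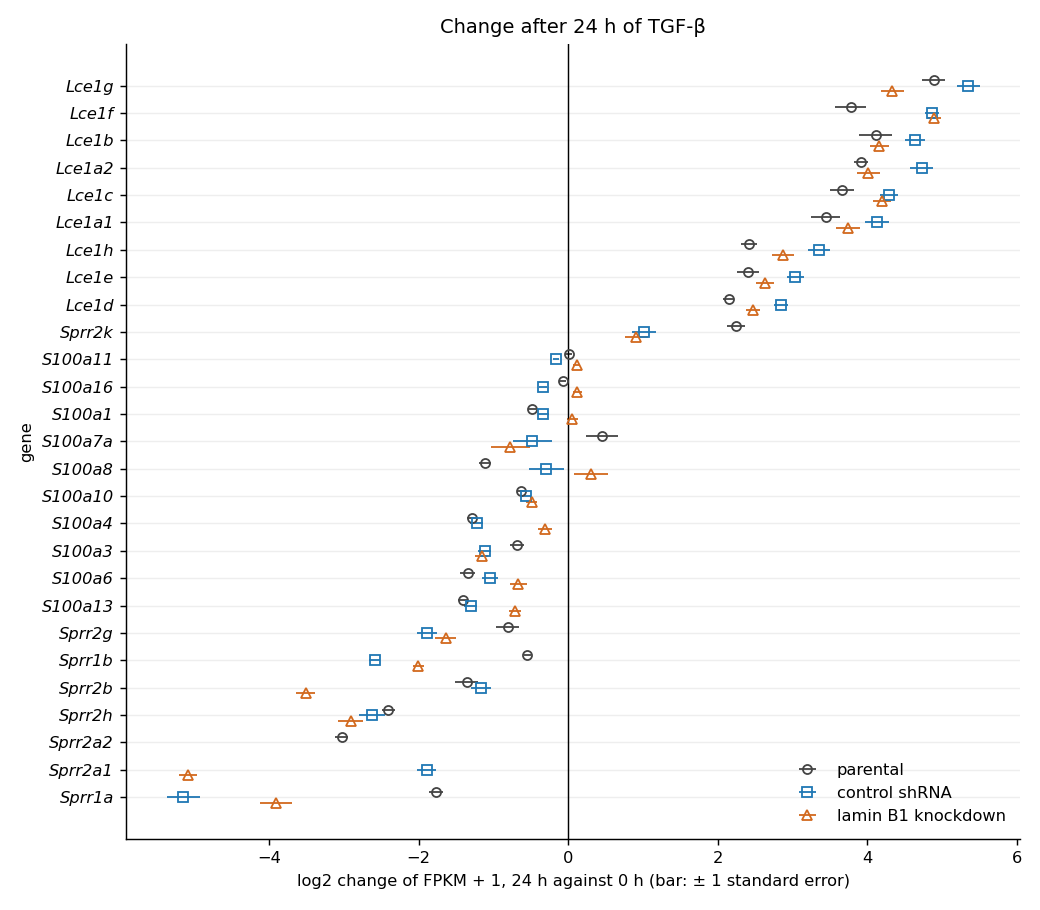
Change of the named members between 0 h and 24 h of TGF-β, as the log2 change of FPKM + 1 with 1 standard error (limma), in parental, control shRNA and lamin B1 KD cells. The 9 Lce1 genes lie to the right of 0 in all 3, Sprr2k is the only Sprr gene drawn to the right, and the S100a genes lie near 0 or to the left except S100a7a in parental and S100a8 in KD cells.

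The other genes of the pathway moved in both directions. Among other listed genes of the complex or with a symbol that begins with S100, 6 of 21 could be tested in parental cells at 24 h. Of these 4 were higher and 2 lower. S100g, a calcium carrier of absorptive epithelia, fell from 48.3 and 36.4 to 3.33 and 2.02 FPKM (limma, -3.57 ± 0.182, adjusted p = 4.62e-06). S100pbp, named as a binding protein of S100 and not itself an S100 gene, rose from 3.12 and 3.33 to 9.02 and 9.20 FPKM (limma, 1.26 ± 0.0727, adjusted p = 7.43e-06). Among the enzymes and scaffold of the cornified envelope 4 of 20 could be tested, with 2 lower and 2 that did not pass. The lower ones were Ppl (periplakin, -1.32 ± 0.175, adjusted p = 0.00041) and Sbsn (suprabasin, -2.53 ± 0.114, adjusted p = 2.82e-06). No tested gene of that list moved with the Lce1 genes.

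Of 10 tested regulators of epidermal genes, 2 were higher and 7 lower in parental cells at 24 h. The 2 were subunits of AP-1. Fosl2 went from 8.72 and 9.02 to 37.0 and 34.5 FPKM (limma, 1.897 ± 0.0917, adjusted p = 3.65e-06), and Junb from 102 and 96.7 to 240 and 229 FPKM (1.23 ± 0.0593, adjusted p = 3.56e-06). The deepest falls were in Cebpa (12.5 and 12.1 to 1.33 and 1.5 FPKM) and Ehf (22.5 and 24.6 to 3.65 and 4.0 FPKM), both factors of epithelial differentiation. Of 10 tested partners and receptors of S100 proteins, 3 were higher and 6 lower. Myh9, the myosin that S100a4 binds, rose by 1.03 ± 0.0578 (adjusted p = 6.39e-06) and Anxa6 by 0.96 ± 0.0553 (adjusted p = 7.48e-06). Ezr (ezrin) and Anxa11 fell, by 1.72 and 1.21 on the log2 scale (adjusted p = 1.49e-05 and 8.18e-06).

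Peaks at the loci came from 1 library a time point, so they have no replicate check, and the MACS score (the caller's measure of confidence) starts at 50 in each list. Of the members 48 could be placed on mm9 with GENCODE M1, all on chromosome 3. A lamin B1 peak between 2500 bp before the start site and the end of the gene was found at 0 of 48 members at 0 h, 3 at 8 h and 1 at 24 h. Of all placed genes 19.7%, 38.6% and 29.2% had one. The genes at 8 h were Sprr1a (chr3:92287934-92288755, score 80.3), S100a6 (chr3:90416644-90417421, score 58.1) and Lce1m (chr3:92821928-92822834, score 58.95). Lce1m RNA never passed 0.425 FPKM, and Sprr1a and S100a6 were among the most abundant members. At 24 h the gene was S100a10 (chr3:93358754-93359369, score 59.9). Against a median score of 79.4 at 8 h and 83.3 at 24 h in their lists, the peak at Sprr1a was just above the middle and the others were weak. No lamin B1 peak lay at Sprr2a1, Sprr2b or Lce1g at any time. The nearest to the Lce1g start site was 671 kb away at 0 h, 266 kb at 8 h and 670 kb at 24 h. According to the paper, the chromatin was sheared lightly, which can keep heterochromatin out of sequencing because its fragments are too large. A missing peak therefore does not show that lamin B1 was absent.

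ATAC peaks within 500 bp of the start site were found at 4 of 48 members at 0 h, 2 at 8 h and 11 at 24 h, beside 30.5%, 24.9% and 46.9% of all placed genes. At 0 h and 8 h they were at S100a genes. At 24 h Lce1g (chr3:92555739-92556913, score 209), Lce1f (chr3:92523767-92524932, score 178) and Sprr1a (chr3:92289062-92290350, score 320) were added, beside 8 S100a genes. The Lce1g peak covered the start site and the promoter printed above, and its centre was 66 bp before the start. The stretch of 399 kb with the Lce genes held 0, 0 and 7 ATAC peaks at 0 h, 8 h and 24 h, and the 284.7 kb with the Sprr genes held 2, 1 and 6. The 24 h list is longer throughout, with 33811 peaks against 9782 and 10340. With the lists cut to the same length by score, an alternative chosen after seeing the data, 3 members kept a peak at 24 h (S100a10, S100a11 and Sprr1a) and Lce1g and Lce1f did not. A gain of openness at the Lce1 genes and a longer list at 24 h therefore cannot be told apart. The Sprr1a peak appeared at 24 h, when Sprr1a RNA was lowest. The Sprr1b gene had an ATAC peak 1.42 kb from its start site at 0 h (score 153) and one at 1.22 kb at 24 h (score 441), and the highest score at a member's start site was that of S100a10 at 24 h (chr3:93357893-93361215, score 500.25).

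**Figure D5:**
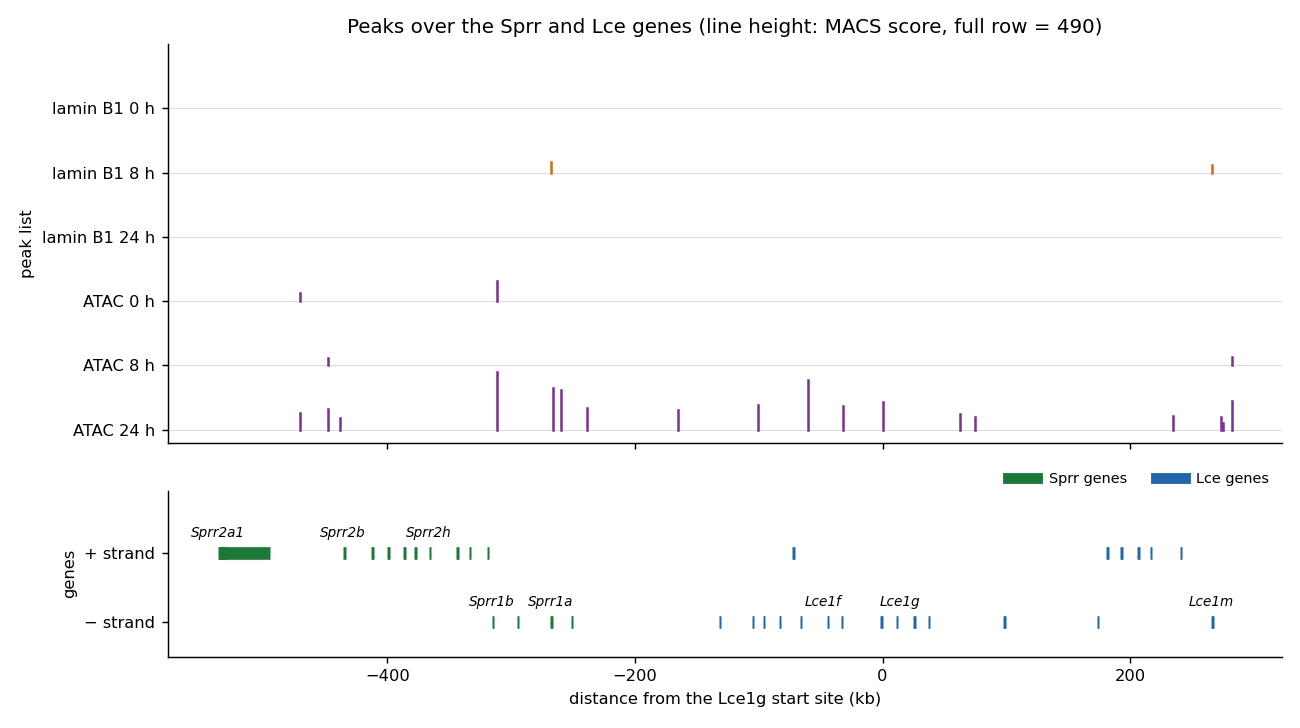
Map of the Sprr and Lce genes by distance from the Lce1g start site (kb). In the upper panel each vertical line is a peak of the lamin B1 or ATAC list at 0, 8 or 24 h, with its height giving the MACS score, and in the lower panel bars are genes by strand. At 0 h and 8 h no ATAC peak lies among the Lce genes, at 24 h there are 7, and the lamin B1 lists have 1 peak at Sprr1a and 1 at Lce1m, both at 8 h.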

How the data were processed

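RNA-seq of NMuMG cells was deposited as FPKM, which the authors computed per gene. The submitters' processing notes name Bowtie, TopHat and Cufflinks, without versions, and build mm9. Parental (6 libraries) and shRNA (12 libraries) tables were made separately and tested separately. Peak lists carry the score that the authors' caller, MACS, gave each deposited peak, with 1 library per time point. Read numbers are not known, and other data types of the series were not used here. Values were tested as log2(FPKM + 1) with limma 3.58.1 in R 4.3.3 (trended variance, all libraries of a table in 1 fit, Benjamini-Hochberg adjustment over all genes tested), where 2 or more libraries of a table reached 1 FPKM. Called means an adjusted p under 0.05. Fold changes on this scale understate the change of low genes. The script was tested on simulated data. Members named with values were those with a mean of at least 5 FPKM in a group, plus Sprr2a1 and Lce1g, 27 in all, and of each companion list the 2 largest rises and falls in parental cells at 24 h. S100a14, Sprr2e, S100a9, Lce1j, Lce1m and Krt14 were added after their values were seen. Peaks were assigned with GENCODE M1 (mm9) from 2500 bp before the start site to the gene's end for lamin B1, and within 500 bp of the start site for ATAC. Promoters came from RefSeq, and 44 members matched. The members and gene lists were chosen with earlier results of these data known. Alternatives were quantile normalization, a pseudocount of 0.1, no filter, a replicate block, other peak thresholds and leaving out each library. Where replicate cultures were not independent, p-values measure only the spread between libraries.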

Additional observations from a re-analysis of the deposited data

Results flagged for a closer look

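Some genes moved one way in every library of one kind of cells and the other way in every library of another. None of these differences was tested. At 8 h Sprr1b changed by 0.23 on the log2 scale in parental cells, by -0.69 in control cells and by -0.36 in KD cells. Also at 8 h, S100a1 changed by -0.10 in parental and 0.25 in KD cells, S100a4 by -0.29 and 0.42, and Sprr2h by -0.58 and 0.36. At 24 h S100a11 changed by -0.16 in control and 0.11 in KD cells, and the latter sign flips after quantile normalization. S100a16 changed at 24 h by -0.34 in control, -0.0729 in parental and 0.12 in KD cells. S100a8 changed at 24 h by -1.11 in parental and 0.31 in KD cells.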

How the results depend on the processing

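Totals of called members stayed within 1.5 times the main total under every other setting tried, except in KD against control cells when 1 library was left out. There the count at 0 h ranged from 6 to 12 (6 without KD replicate 1 and 8 without KD replicate 2, against 13), and at 24 h from 7 to 12 (7 without either control library of 24 h, against 11). Over all genes the share called fell with it, from 19.7% to 5.71% and 6.06% at 0 h and from 28.3% to 10.5% and 12.5% at 24 h. Without the filter on low values, members called in parental cells at 8 h numbered 14 (9 higher and 5 lower) against 21 (11 higher and 10 lower), and the share of all genes called was 20.7% against 54.5% (over the other TGF-β comparisons 31.5% to 38.3%, against 64.3% to 71.9%). A lone library was assumed to vary like the others. The other ranges were 16 to 22 (parental, 8 h), 24 to 26 (parental, 24 h), 19 to 21 and 25 to 28 (control), 15 to 18 and 21 to 24 (KD), and 8 to 9 (KD against control, 8 h). Of the values of single genes under an alternative, 1241 of 1342 kept their direction and their side of the threshold, 47 lost the call, 16 gained it and 38 changed sign. A pseudocount of 0.1 changed none of 156. These single-gene values cover the TGF-β comparisons only. With that pseudocount, called members in KD against control cells at 0 h numbered 17 (14 higher, 3 lower) against 13, beside 19.1% of all genes. At 8 h and 24 h they stayed at 11.

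Quantile normalization changed the sign of 8 log2 changes. At 8 h these were S100a10 in parental (0.10), control (-0.0399) and KD cells (-0.0751), S100a1 (0.0516) and Sprr2k (0.0675) in control cells, and S100a6 (-0.54) and Sprr2b (0.0343) in KD cells. At 24 h S100a11 in KD cells became -0.23 (limma, adjusted p = 0.0175), against 0.11. The cause was not tested.

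Leaving out 1 library changed the sign of 19 log2 changes, none called before. In parental cells S100a10 ranged from -0.0671 to 0.041 and Sprr2k from -0.0348 to 0.32 at 8 h, and S100a11 from -0.0302 to 0.0402 at 24 h. In control cells at 8 h S100a1 ranged from -0.0605 to 0.0597, S100a10 from -0.0224 to 0.18, S100a4 from -0.13 to 0.075, S100a6 from -0.10 to 0.0746, S100a7a from -0.53 to 0.19, Sprr2h from -0.20 to 0.40 and Sprr2k from -0.25 to 0.0689, and at 24 h S100a8 from -0.64 to 0.0499. In KD cells at 8 h S100a10 ranged from -0.0116 to 0.0174, S100a13 from -0.0293 to 0.0836, S100a16 from -0.0086 to 0.065, S100a6 from -0.0401 to 0.30, S100a7a from -0.16 to 0.20, Sprr2b from -0.24 to 0.0598 and Sprr2k from -0.28 to 0.0793, and at 24 h S100a1 from -0.063 to 0.17.

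With peaks at or above the median score, members with a lamin B1 peak numbered 1 at 8 h and 0 at 24 h, and members with an ATAC peak at the start site 0 at 0 h and 1 at 8 h. With ATAC lists of equal length, chosen after seeing the data, the number at 24 h was 3.

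In the shRNA table replicate numbers are shared between groups, and deviations of same-numbered libraries correlated at -0.135 to 0.368 (15 pairs). These values showed no clear pairing by number, though they cannot exclude that same-numbered libraries came from the same culture. With a replicate block the counts were 21 and 26 in control, 19 and 26 in KD cells and 13, 11 and 12 in KD against control cells, and S100a16 in KD cells at 24 h passed (0.12, limma, adjusted p = 0.0311). No paired analysis was possible because the columns carry no replicate number in the parental table. With 2 libraries per group and unknown depth, small changes and genes under 1 FPKM are beyond reach, and peaks have no replicate.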
